A study of Mus musculus with 162 samples.

Results

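The chemokine receptor CXCR3, its 3 ligands and interferon gamma, the cytokine that gave those ligands their older names, were followed through mouse skin, trigeminal ganglia and spinal cord after topical MC903. The set was chosen by name as Cxcl9, Cxcl10, Cxcl11, Cxcr3 and Ifng, which is 5 of the 46078 genes counted in each library. No measured value was used as a filter, but earlier results of these data were known when the set was chosen. CXCL9, CXCL10 and CXCL11 are small secreted proteins that cells make in response to interferons, and they draw in activated T cells and natural killer cells, which carry CXCR3. Interferon gamma is secreted mainly by those same lymphocytes. In skin the ligands can come from keratinocytes, fibroblasts and myeloid cells, and CXCL10 acting on CXCR3 of sensory neurons has been linked to itch.

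MC903 (calcipotriol), a vitamin D analogue that induces an inflammation like atopic dermatitis, was applied daily as 20 µL at 0.2 mM to the shaved cheek, and ethanol was the vehicle. Tissue was taken on day 1 (6 hours after the first application) and on days 2, 5, 8 or 12. Wild-type mice were C57BL/6 mice of 8 to 12 weeks, and for the spinal cord libraries the rostral back received a larger volume of the same solution in place of the cheek. Injected wild-type mice received aGr1, an antibody to Gr1 given to deplete neutrophils, as 250 µg each day from the day before the first MC903, or PBS as its control. TSLPR.KO mice carry the Crlf2tm1Jni allele, a loss of the receptor for the cytokine TSLP, backcrossed to C57BL/6, and they were taken on days 8 and 12. BLT1.KO mice, named for a leukotriene B4 receptor encoded by Ltb4r1, were taken on day 8, and their allele is not given in the sources used here. Of 162 libraries, 144 entered, namely 61 skin, 56 trigeminal ganglion and 27 spinal cord libraries, and 18 wild-type day 12 libraries were not used here.

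Expression is given as cpm, a gene's count per 1000000 counts on all genes of the library. The library totals ran from 15931871 to 67342879, with a median of 27654801.5. A count of 3 or fewer, which is 0.0445 cpm in the deepest and 0.188 cpm in the shallowest library, was taken as not detectable, a floor that covers counting error only. The tissue labels fitted their markers, with sensory neuron markers summing to 1702 cpm or more in every trigeminal library and the spinal list to 13722 cpm or more in every spinal cord library. Crlf2 was at 2.24 to 15.4 cpm in wild-type skin and at 0.0691 to 0.277 cpm in TSLPR.KO skin on day 8, but at 0.405 to 1.34 cpm in skin labelled TSLPR.KO on day 12. In ganglia labelled TSLPR.KO on day 12 it was at 0.907 to 2.06 cpm, a range that overlaps the lower wild-type ganglia (from 1.15 cpm), so these libraries are named by their label. In the library labelled wild-type trigeminal ganglion, ethanol, day 8, cohort B replicate 2, Crlf2 had 4 counts (0.117 cpm), which goes against its label, and results that rest on it are given with and without it. Ltb4r1 was at 2.33 to 3.70 cpm in ethanol-treated BLT1.KO skin, against 6.66 to 10.5 cpm in uninjected wild-type ethanol skin of day 8, but aGr1-injected wild-type ethanol skin overlapped it (2.52 to 6.33 cpm). With MC903 it was at 10.6 to 15.1 cpm in BLT1.KO skin and at 33.5 to 77.6 cpm in uninjected wild-type skin of day 8. Ltb4r1 RNA was thus present in BLT1.KO skin, and its levels do not settle the label. Uninjected wild-type libraries of day 8 have titles of 2 kinds, here cohort A and cohort B. In cohort A skin, 2 MC903 libraries are both titled replicate 1, skin4 among them, and 2 ethanol libraries are both titled replicate 3. They were fitted as separate libraries, and the titles do not say whether they came from separate animals. The labels do not say that replicates came from separate animals in every group, and where they did not, p-values measure the spread between these libraries.

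The 3 ligand genes lie side by side on the minus strand of chromosome 5 (GRCm38, the build of the mm10 alignment): Cxcl9 (ENSMUSG00000029417) at chr5:92321347-92328079, Cxcl10 (ENSMUSG00000034855) at chr5:92346638-92348889 and Cxcl11 (ENSMUSG00000060183) at chr5:92359544-92365485. Cxcr3 (ENSMUSG00000050232) lies on the minus strand at chrX:101731535-101734269 and Ifng (ENSMUSG00000055170) on the plus strand at chr10:118441046-118445892. Cxcl11 is annotated as a polymorphic pseudogene on this build. Its counts are of RNA and do not show that these mice make CXCL11 protein, which was not measured. Of the exon bases of Cxcl11, 41.7% are shared with the pseudogene Gm2673 on the opposite strand, as are 5.91% of those of Cxcl10 with Art3. Whether counting used strand is not given in the sources used here. If it did not, reads in the shared bases fell on several genes and were left out, so the levels are uncertain to that extent. Gm2673 itself had 0 to 5 counts per library, and Art3 had 257 to 7198. Since 98.4% of the exon bases of Gm2673 are shared, its count says little about its level if strand was not used.

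Because Cxcl9 and Cxcl10 moved together in nearly every skin group, the 250 bases before their annotated starts are shown, as RefSeq gives them on GRCm38.p6, written 5′ to 3′ on the minus strand. The windows are chr5:92348890-92349139 for Cxcl10 and chr5:92328080-92328329 for Cxcl9, and capitals mark matches to 3 motifs searched on both strands, the interferon gamma-activated site GAS (TTCNNNGAA), the interferon-stimulated response element ISRE (GAAANNGAAA) and the NF-kappaB consensus.
Cxcl10: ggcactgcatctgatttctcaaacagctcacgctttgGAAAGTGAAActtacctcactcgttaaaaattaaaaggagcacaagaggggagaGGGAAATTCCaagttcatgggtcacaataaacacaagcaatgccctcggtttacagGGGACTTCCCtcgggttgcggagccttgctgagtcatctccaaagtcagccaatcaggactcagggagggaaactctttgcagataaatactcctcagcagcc
Cxcl9: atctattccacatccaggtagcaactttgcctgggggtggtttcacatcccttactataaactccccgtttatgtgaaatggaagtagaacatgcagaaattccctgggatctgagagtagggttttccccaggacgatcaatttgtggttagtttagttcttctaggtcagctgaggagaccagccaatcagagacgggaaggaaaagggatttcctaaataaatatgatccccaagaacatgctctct
The window of Cxcl10 held 1 ISRE match, 213 to 204 bases before the start, and 2 NF-kappaB matches, at 159 to 150 and at 103 to 94 bases, none of them overlapping. That of Cxcl9 held no match to these letters, that of Ifng held 1 GAS match at 249 to 241 bases, and that of Cxcr3 held none. Among 32851 mouse promoter windows of this length, 2.98% held the ISRE letters, 3.90% the NF-kappaB consensus and 7.02% the GAS letters. These are matches of letters, and binding was not measured.

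In skin, the CXCR3 ligands were low until day 5 and high on day 8. In uninjected wild-type mice on day 8, all 5 members passed the test as higher under MC903, the ligands by 11.1-fold to 19.5-fold, Cxcr3 by 3.16-fold and Ifng by 10.4-fold. The result for Ifng was near the threshold, its groups overlapped, and it was lost in 8 of the 11 fits that left out 1 library. Before day 8 no rise passed the test, and on day 1 Cxcl10 fell, a result lost in 6 of the 8 fits that left out 1 library. Each member was tested in edgeR against ethanol of the same day, with p-values adjusted over all genes tested. Statements here and below, in every tissue, that groups did or did not overlap describe the libraries and are not tests. Chance alone can separate small groups, and the share of all genes without overlap was not counted.

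On day 1, 6 hours after the first application, Cxcl10, the ligand also known as IP-10, was at 1.79, 2.33, 2.80 and 2.0 cpm in the 4 ethanol libraries and at 0.516, 1.10, 1.25 and 1.36 cpm in the 4 MC903 libraries. All MC903 libraries lay below all ethanol libraries, and the log2 fold change was -1.09 ± 0.30 (SE, adjusted p = 0.0392). It was the 1 member of 4 tested that was called, where 13% of all genes were, and the call was lost in 6 of the 8 fits that left out 1 library. Cxcl9, also called MIG, changed by -0.86 ± 0.31 on the log2 scale (adjusted p = 0.0909), from 1.61 to 3.42 cpm with ethanol to 1.04 to 2.54 cpm with MC903. Cxcr3 was at 0.958 to 2.39 cpm and at 0.631 to 1.27 cpm, which did not pass the test (log2 fold change -0.84 ± 0.40, adjusted p = 0.188), and Cxcl11 did not move in either direction (0.00 ± 0.61). On this day 10 of 20 genes of a list strongly induced by interferon gamma fell and none rose, with a list median of -0.59 against 0.00 over all genes. Summed T cell markers were at 92.6 cpm and B cell markers at 151 cpm in ethanol replicate 4, where the other ethanol libraries held at most 45.1 cpm and 34.7 cpm. Without that library Cxcl10 was at -1.06 ± 0.32 (adjusted p = 0.0676), and the part of those cells in the result was not tested.

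On day 2 Cxcl9 was at 3.69 and 2.52 cpm with ethanol and at 9.99, 4.46 and 4.13 cpm with MC903, and Cxcl10 at 2.44 and 1.83 cpm with ethanol and at 5.21, 2.80 and 3.28 cpm with MC903. Both sets of MC903 values lay above the ethanol values, but neither change passed the test (0.96 ± 0.57 and 0.77 ± 0.49 on the log2 scale, adjusted p = 0.898 for each). No gene of all tested was called on this day in edgeR (0%), which had 1191 genes at an unadjusted p under 0.05, while DESeq2 called 280, and no member was among the called in either. Cxcl11 reached 1.27 cpm and Ifng 0.283 cpm (8 counts) in MC903 replicate 3 alone, where ethanol Ifng was 0 in both libraries, at least 1.26-fold higher over the group by the floor of 3 counts per library (adjusted p = 0.898). That library also held 1318 cpm of sensory neuron markers, against 17.2 to 20.6 cpm in the rest of the day 2 skin, and without it Cxcl9 was at 1.22 ± 0.47 (adjusted p = 0.55). The part of that tissue in these values was not tested.

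On day 5 the ligands parted. Cxcl9 was at 3.15, 3.01 and 2.53 cpm with ethanol and lower with MC903, at 1.87, 0.551 and 0.557 cpm, and Cxcl11, also called I-TAC, was at 0.427, 0.923 and 0.253 cpm against 0.0797, 0.103 and 0.239 cpm. For both genes every MC903 library lay below every ethanol library, yet neither passed the threshold of 0.05 (Cxcl9 -1.66 ± 0.48, adjusted p = 0.0562, and Cxcl11 -1.93 ± 0.66, adjusted p = 0.0893). Cxcl10 was at 2.69, 1.28 and 1.52 cpm against 3.31, 1.79 and 1.79 cpm, overlapping groups with a log2 difference of 0.22 ± 0.39, and Cxcr3 differed by 0.07 ± 0.50. No member was called by edgeR, where 14.9% of all genes were, and 2 had an unadjusted p under 0.05. DESeq2 called Cxcl9 (adjusted p = 0.00596). Summed B cell markers were at 64.4, 41.5 and 21.2 cpm with ethanol and at 14.7, 13.1 and 9.83 cpm with MC903, also without overlap, and their part was not tested. Ifng had at most 2 counts in each library of days 1 and 5 and was not detectable there.

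By day 8 the ligand levels separated widely. Cxcl10 ranged over 1.19 to 2.04 cpm in the 6 ethanol libraries, with a median of 1.87, and stood at 58.6, 9.14, 102, 6.98 and 18.1 cpm in the 5 MC903 libraries, the first 3 of cohort A. Every MC903 library was above every ethanol library, and the lowest and the highest of them differed more from each other than the lowest did from ethanol. The log2 fold change was 4.13 ± 0.61 (adjusted p = 0.000394). Cxcl9 went from 1.959 to 3.2 cpm (median 2.14) to 84.7, 5.64, 175, 9.92 and 27.4 cpm in the same order of libraries. Its groups did not overlap either, with a change of 4.29 ± 0.78 (adjusted p = 0.00168). Cxcl11 was near the floor with ethanol, at 0.0537 to 0.151 cpm (median 0.125), and reached 1.10, 0.403, 3.88, 0.582 and 1.09 cpm, again without overlap (3.47 ± 0.58, adjusted p = 0.000985).

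**Figure D1:**
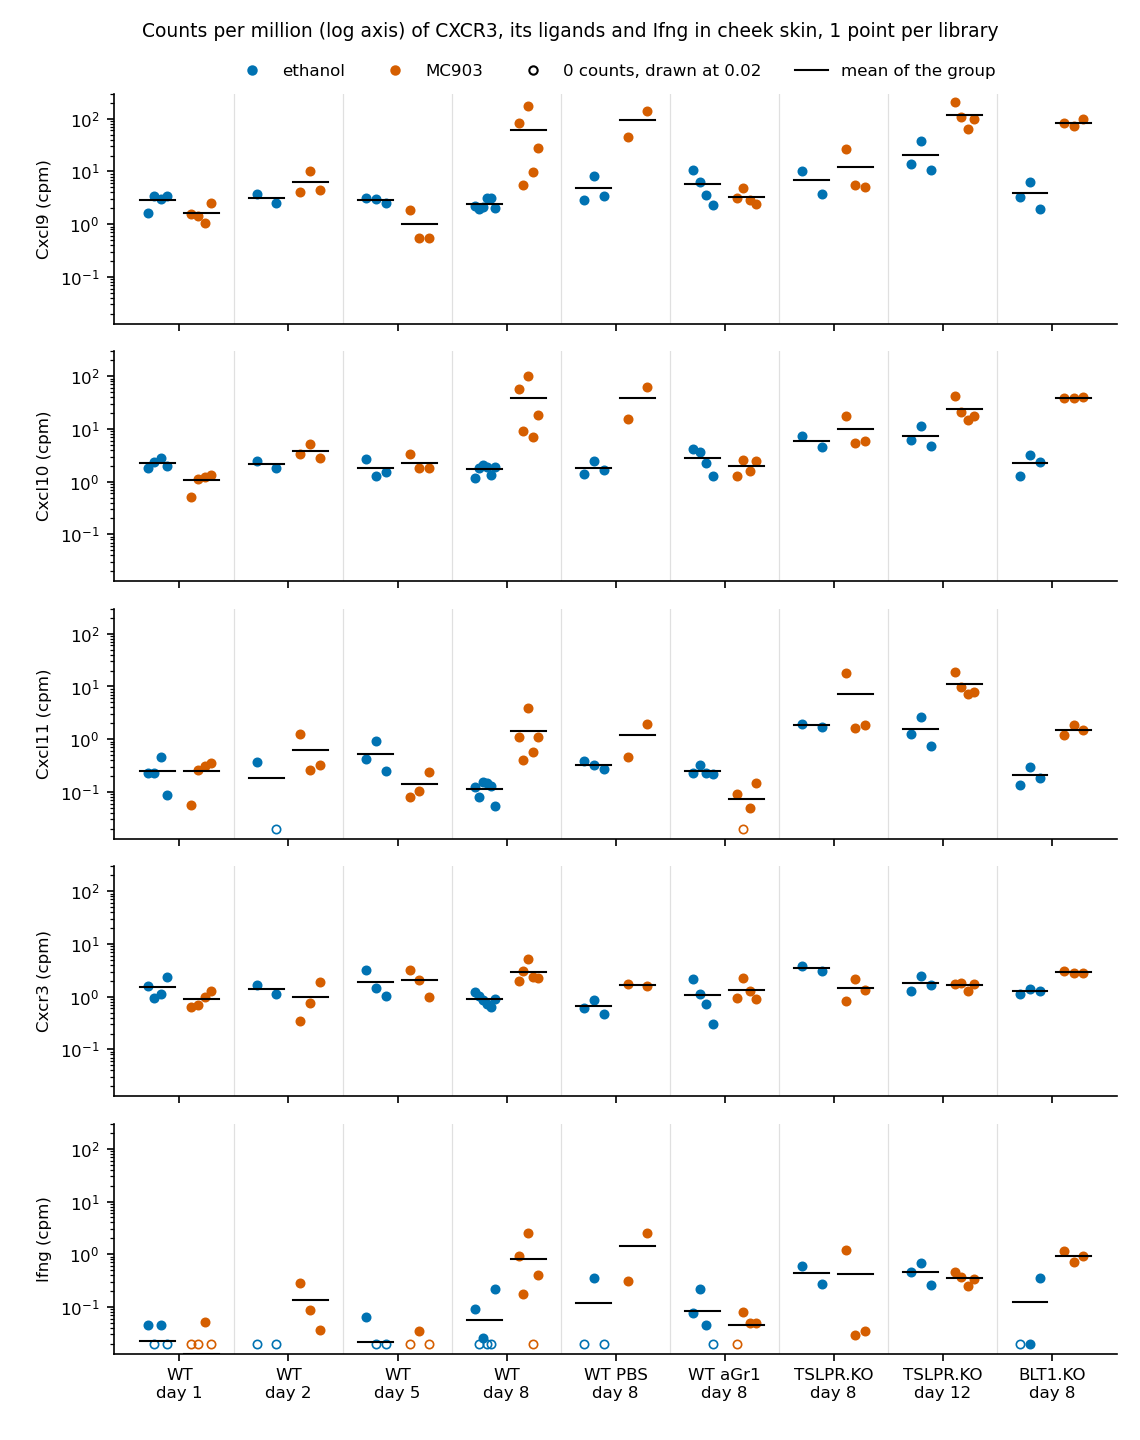
Level of the 5 members (cpm, log axis) in each skin library by genotype, injection and day (x axis), with 1 point per library for ethanol and MC903, open points for 0 counts and a line at the group mean. Points of MC903 rise clear of ethanol for the ligands on day 8 in uninjected, PBS-injected and BLT1.KO mice (Cxcl10 from 6.98 to 102 cpm in uninjected wild-type) and not in aGr1-injected mice (1.28 to 2.57 cpm).

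The receptor moved less and with less spread. Cxcr3 was at 0.636 to 1.25 cpm in the 6 ethanol libraries (median 0.898) and at 2.01, 3.11, 5.21, 2.33 and 2.28 cpm in the 5 MC903 libraries. Its ranges were apart and its change of 1.66 ± 0.24 had the smallest adjusted p of the set (0.000297). Ifng, the inducing cytokine, was at 0 to 0.215 cpm with ethanol and at 0.918, 0.173, 2.50, 0 and 0.395 cpm with MC903. These groups overlapped, since 1 MC903 library had no count and another lay under the highest ethanol library. Its change of 3.37 ± 1.14 (adjusted p = 0.0491) was called in edgeR but not in DESeq2 (adjusted p = 0.0696), nor in 8 of the 11 fits that left out 1 library. All 5 members were called on day 8, where 23.4% of all genes were.

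The same library, cohort A skin4, had the highest level of every member among the MC903 libraries. Without it the ligands still passed, Cxcl9 at 3.67 ± 0.62, Cxcl10 at 3.66 ± 0.50 and Cxcl11 at 2.79 ± 0.48, and so did Cxcr3 at 1.45 ± 0.22, but not Ifng (2.66 ± 1.18, adjusted p = 0.136). The other cohort A MC903 library titled replicate 1 was left out together with skin4 only in the fit of cohort B alone. Within cohort B alone Cxcl9, Cxcl10 and Cxcr3 passed, and Cxcl11 did not (2.93 ± 0.82, adjusted p = 0.0553). T cell markers moved with these genes. Their summed level was 34.8 to 48.5 cpm with ethanol and 65.6 to 101 cpm with MC903, highest in skin4, and none of the 14 markers was at 0 in every library. Of those markers 9 rose, led by Icos, a costimulatory receptor of activated T cells (2.87 ± 0.33), and 2 fell, Cd3g at -1.23 ± 0.27 and Cd3e at -0.99 ± 0.24, both parts of the T cell receptor complex. Cytotoxic lymphocyte markers summed to 13.5 to 28.6 cpm and 23.4 to 78.6 cpm, with 5 of 14 higher, among them Gzmb, the protease granzyme B (5.53 ± 0.59, adjusted p = 2.74e-05). Their part in the result was not tested, and in bulk skin more cells of a type and more RNA per cell cannot be told apart.

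**Figure D2:**
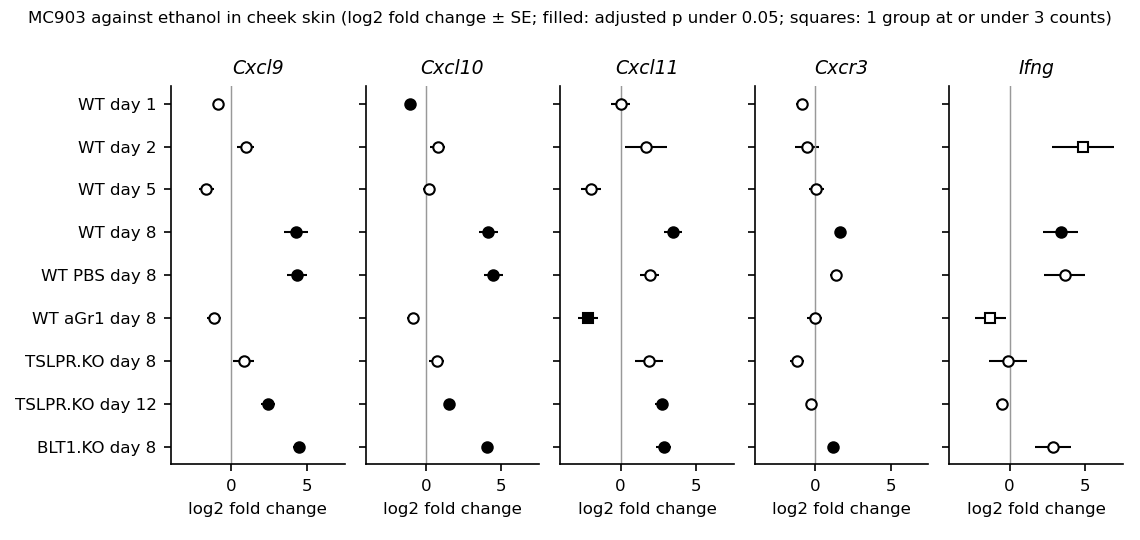
Log2 fold change of MC903 over ethanol (x axis) for each member in the 9 skin comparisons (y axis), with bars of 1 SE from edgeR, filled where the adjusted p was under 0.05 and squares where 1 group was at or under 3 counts in every library. The ligands lie between 2.85 and 4.45 on day 8 in uninjected wild-type and BLT1.KO skin and at or below -0.88 in aGr1-injected skin.

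Genes around the members on the interferon gamma pathway were counted by lists chosen with earlier results of these data known, so the counts are descriptions. In uninjected skin on day 8, where 23.4% of all genes were called, 9 of 12 genes of the receptor, its kinases, transcription factors and feedback inhibitors rose and none fell (median log2 fold change 1.25, against -0.03 over all 26175 genes tested). They included Socs1, an inhibitor of JAK signalling that interferons induce (2.31 ± 0.37, adjusted p = 0.000672), Irf8 (1.54 ± 0.20) and Jak2 (1.25 ± 0.15). Of 15 genes that drive interferon gamma production 8 rose and 1 fell. Il18rap, a chain of the interleukin 18 receptor, rose by 3.28 ± 0.34 and Stat4 by 2.37 ± 0.32, and Il12rb2, a chain of the interleukin 12 receptor, fell by 1.09 on the log2 scale. Among 20 genes strongly induced by interferon gamma 15 rose, such as Gbp5, a guanylate-binding protein (2.47 ± 0.43), and Cd274, which encodes PD-L1 (2.12 ± 0.35). Among 15 strongly induced by type I interferon 13 rose, such as Oasl2 (2.81 ± 0.49) and Oas1a (2.65 ± 0.40), members of an antiviral enzyme family. Dpp4, the peptidase that trims and weakens CXCR3 ligands, fell from a mean of 45.9 to 20.4 cpm (-1.17 ± 0.18, adjusted p = 0.000601), while Ackr3, a scavenger receptor of CXCL11, and Pf4, itself a chemokine, were not called.

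Across the 61 skin libraries, Pearson's r of log2(cpm + 0.5) was 0.94 between Cxcl9 and Cxcl10, 0.87 between Cxcl10 and Ifng, 0.74 between Cxcl10 and Cxcl11 and 0.58 between Cxcl10 and Cxcr3. The lowest was 0.30, between Cxcl11 and Cxcr3. Among 17640 genes with a mean of 1 cpm or more, those most like Cxcl10 were Oasl2 (0.93), Isg15 (0.93), Zbp1 (0.92), Irgm1 (0.92) and Ifit1 (0.92), all known as interferon-induced. Within the 31 MC903 libraries they were Oasl2 (0.96), Irgm1 (0.96), Zbp1 (0.95), Mx1 (0.95) and Irf9 (0.95). The genes most like Cxcr3 over all skin were Tnfrsf1b (0.77), Itgb7 (0.77), Snx20 (0.76), Sash3 (0.72) and Fcer1g (0.72). Within the MC903 libraries they were Tnfrsf1b (0.88), Ly6e (0.87), Sash3 (0.85), Unc93b1 (0.85) and Efemp2 (0.84). These r are descriptions over libraries that share treatments and groups.

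In mice injected with PBS, the control for aGr1, Cxcl9 and Cxcl10 rose with MC903. Cxcl9 was at 2.92, 8.09 and 3.40 cpm in the 3 ethanol libraries and at 45 and 143 cpm in the 2 MC903 libraries. Cxcl10 was at 1.38, 2.50 and 1.66 cpm and at 15.1 and 63.1 cpm. The higher MC903 library was the same for both, and neither gene's groups overlapped. Both were called, Cxcl9 at 4.34 ± 0.64 (20.2-fold, adjusted p = 0.0187) and Cxcl10 at 4.46 ± 0.63 (22-fold, adjusted p = 0.0164), which makes 2 of 5 members where 3.99% of all genes were called. Leaving out ethanol replicate 1 or 3 ended both calls (adjusted p up to 0.148), as did leaving out MC903 replicate 2 for Cxcl9 (adjusted p = 0.0786). Cxcl11 (0.277 to 0.378 cpm, then 0.465 and 1.94 cpm) and Cxcr3 (0.474 to 0.873 cpm, then 1.76 and 1.58 cpm) did not overlap either and did not pass, at 1.94 ± 0.64 and 1.37 ± 0.37. Ifng was at 0, 0.357 and 0 cpm and at 0.310 and 2.51 cpm (3.64 ± 1.33, adjusted p = 0.224). Summed T cell markers were at 34.7 to 60.9 cpm with ethanol and at 108.4 and 72.6 cpm with MC903, and cytotoxic lymphocyte markers at 15.2 to 26.9 cpm and at 50.2 and 44.3 cpm, neither with overlap, and their part was not tested. The MC903 effects in PBS-injected and uninjected mice differed by 0.02 ± 1.29 for Cxcl9 and 0.30 ± 1.02 for Cxcl10, with no member called among 0.0146% of all genes.

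In aGr1-injected mice the ligands did not rise. Cxcl10 was at 4.17, 3.62, 2.21 and 1.26 cpm with ethanol and at 1.28, 2.57, 1.61 and 2.48 cpm with MC903, and Cxcl9 at 10.7, 6.29, 3.52 and 2.31 cpm and at 3.11, 4.90, 2.84 and 2.38 cpm. The groups overlapped for both, and their changes of -0.88 ± 0.39 (adjusted p = 0.116) and -1.16 ± 0.45 (adjusted p = 0.0744) did not pass. Cxcl11 went from 0.232, 0.329, 0.226 and 0.217 cpm to 2, 0, 1 and 3 counts, none of them detectable, and was the 1 member of 5 called, where 32.6% of all genes were. It was at least 1.82-fold lower (edgeR adjusted p = 0.0344), a call lost in 6 of the 8 fits that left out 1 library. Cxcr3 was at 2.12, 1.13, 0.723 and 0.304 cpm with ethanol and at 0.959, 2.25, 1.27 and 0.892 cpm with MC903, a difference of -0.03 ± 0.52. Ifng held at most 0.219 cpm with ethanol and 0 to 2 counts with MC903.

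The difference between the MC903 effects was tested as an interaction. Against PBS, the effect in aGr1-injected mice differed by -5.45 ± 0.83 on the log2 scale for Cxcl9 (adjusted p = 0.0229) and by -5.29 ± 0.76 for Cxcl10 (adjusted p = 0.0226), 2 of 5 members where 0.232% of all genes were called, 61 of those 62 genes lower. Cxcl11 was at -4.06 ± 0.94 (adjusted p = 0.113, and 0.0143 in DESeq2), Cxcr3 at -1.36 ± 0.76 and Ifng at -4.84 ± 1.89. Against uninjected mice, which share the same aGr1 libraries, Cxcl9 was at -5.43 ± 1.04 (adjusted p = 0.00734), Cxcl10 at -5.00 ± 0.84 (adjusted p = 0.00495) and Cxcl11 at -5.63 ± 0.96 (adjusted p = 0.00534), 3 of 5 where 4.56% of all genes were called. Cxcr3 was at -1.68 ± 0.54 (adjusted p = 0.0855, and 0.0291 in DESeq2). The calls against uninjected mice held when any 1 library was left out. Those against PBS were lost in 5 of 13 such fits for each gene, without PBS ethanol replicate 1 or 3, PBS MC903 replicate 2, or aGr1 MC903 replicate 1 or 2 (adjusted p up to 0.152).

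Lymphocyte markers moved with this result. In the 4 aGr1 ethanol libraries B cell markers summed to 649, 311, 60.4 and 24.1 cpm and T cell markers to 180, 117.9, 57.8 and 29.8 cpm, the same order of libraries as Cxcl9, Cxcl10 and Cxcr3. With MC903 they were at 5.02 to 8.71 cpm and 52 to 65.9 cpm, all 5 B cell markers fell, and no marker of either list was at 0 in every library. In an alternative added after these values were seen, leaving out the 2 ethanol libraries highest in B cell markers, the differences kept their direction but no longer passed. Against PBS Cxcl9 was at -4.41 ± 0.72 and Cxcl10 at -4.50 ± 0.73 (adjusted p = 0.0665 for each), and against uninjected mice Cxcl10 was at -4.19 ± 0.94 (adjusted p = 0.0561) and Cxcl11 at -5.38 ± 1.18 (adjusted p = 0.053). Cxcr3 within the aGr1 groups then turned to 1.13 ± 0.49 (adjusted p = 0.141). Neutrophil markers summed to 193 to 249 cpm in the aGr1 MC903 libraries, against 74.8 to 383 cpm in uninjected and 307 to 426 cpm in PBS-injected MC903 libraries. The part of any of these cells was not tested.

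Interferon-induced genes as a rule did not rise in aGr1-injected mice either. Of the 20 genes strongly induced by interferon gamma 12 fell with MC903 and none rose (median -0.91, against -0.02 over all genes), and of the 15 induced by type I interferon 12 fell (median -1.40). Of all genes 32.6% were called there, 4415 of the 8242 lower. The 2 aGr1 ethanol libraries highest in B cell markers are included, and these counts were not repeated without them. Irgm1, an immunity-related GTPase, was at -1.12 ± 0.31 (adjusted p = 0.0222) and Oasl2 at -1.19 ± 0.32 (adjusted p = 0.0192). Socs1 and Jak2 still rose, by 0.95 ± 0.30 and 1.0 ± 0.12, and Dpp4 still fell, at -1.74 ± 0.16. Against uninjected mice the effect was lower in 16 of the 20 and in 14 of the 15 genes, where 4.56% of all genes were called. Those 2 aGr1 ethanol libraries are included here too.

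TSLPR.KO skin on day 8 had higher ligand levels with ethanol and no clear rise with MC903. Cxcl10 was at 7.40 and 4.54 cpm in the 2 ethanol libraries and at 17.9, 5.49 and 5.91 cpm in the 3 MC903 libraries, and Cxcl9 at 10.1 and 3.81 cpm and at 26.5, 5.49 and 4.98 cpm. Cxcl11 was at 1.94 and 1.73 cpm and at 17.7, 1.64 and 1.89 cpm. MC903 replicate 1 was the highest for each ligand and the remaining pair lay within or near the ethanol values. No member was called, where 2.44% of all genes were: Cxcl9 was at 0.82 ± 0.68, Cxcl10 at 0.71 ± 0.49 and Cxcl11 at 1.91 ± 0.92. Without replicate 1 they were at -0.34 ± 0.44, -0.01 ± 0.30 and -0.01 ± 0.35. That library also had the most T cell markers, at 123.2 cpm, against 52.4 and 60.2 cpm in the remaining MC903 libraries. Cxcr3 went the other way, from 3.87 and 3.08 cpm to 0.845, 2.21 and 1.34 cpm, without overlap and without passing (-1.20 ± 0.44, adjusted p = 0.245). Ifng was at 0.588 and 0.277 cpm and at 1.18, 0.0287 and 0.0344 cpm.

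Set against uninjected wild-type mice, Cxcr3 was the member whose MC903 effect differed in TSLPR.KO mice, by -2.83 ± 0.47 (adjusted p = 0.0216), 1 of 5 where 0.177% of all genes were called. The call was lost without TSLPR.KO MC903 replicate 1 (adjusted p = 0.069) or 3 (0.0698), without ethanol replicate 1 (0.236), and with cohort B alone as wild-type (0.169). Cxcl10 was at -3.39 ± 0.96 (adjusted p = 0.185), past the threshold in DESeq2 (0.0485), and Cxcl9 at -3.43 ± 1.25, Cxcl11 at -1.54 ± 1.13 and Ifng at -3.45 ± 1.91 did not pass. Within TSLPR.KO skin, where 2.44% of all genes were called, none of the 20 genes induced by interferon gamma was (median -0.38, against 0.00 over all genes). Of 15 induced by type I interferon 2 rose, among them Rsad2, an antiviral enzyme (1.57 ± 0.28, adjusted p = 0.0196).

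The higher starting levels were compared directly, in a contrast added after they were seen, between the 2 TSLPR.KO and the 6 uninjected wild-type ethanol skin libraries of day 8. Cxcl11 was 14.6-fold higher in TSLPR.KO (mean 1.83 against 0.113 cpm, log2 3.87 ± 0.45, adjusted p = 0.0283) and was 1 of 5 genes called of 25375 (0.0197%), beside Crlf2, Atp10d, Igha and Igkc. Crlf2 itself lies on the same chromosome as Cxcl11, at chr5:109554709-109558993, as does Atp10d, at chr5:72203329-72298775. Igha and Igkc lie on chromosomes 12 and 6. Of the 428 genes tested within 20 Mb of Cxcl11, 2 were called (0.467%), Crlf2 and Cxcl11, and Atp10d lay outside that window. The window was centred on Cxcl11, itself called, and is wide enough to reach Crlf2, the gene of the knockout. Both calls were therefore in it by construction, and its share cannot be set against the share over all genes. Cxcl10 at 1.69 ± 0.28 (adjusted p = 0.206), Cxcr3 at 1.83 ± 0.30 (0.187) and Cxcl9 at 1.39 ± 0.34 (0.749) did not pass in edgeR, though DESeq2 called Cxcl10 and Cxcr3 among its 49 genes. The call of Cxcl11 was lost in 7 of 8 fits that left out 1 library and with cohort B alone as wild-type (3.95 ± 0.60, adjusted p = 0.238). Genotype and the set in which the libraries were made cannot be told apart here.

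On day 12 the ligands rose in skin labelled TSLPR.KO. Cxcl9 was at 14, 37.8 and 10.6 cpm with ethanol and at 211, 108, 63.7 and 97.7 cpm with MC903, and Cxcl10 at 6.07, 11.5 and 4.79 cpm and at 41.5, 20.6, 14.6 and 17.9 cpm. Cxcl11 was at 1.26, 2.6 and 0.745 cpm and at 19.1, 9.89, 7.14 and 7.87 cpm. All MC903 libraries lay above all ethanol libraries for the 3 ligands, replicate 1 being the highest each time, and 3 of 5 members were called, where 10% of all genes were. Cxcl11 rose by 6.66-fold (2.74 ± 0.43, adjusted p = 0.00515), Cxcl9 by 5.45-fold (2.45 ± 0.45, adjusted p = 0.0112) and Cxcl10 by 2.91-fold (1.54 ± 0.37, adjusted p = 0.0304). The call of Cxcl10 was lost without ethanol replicate 1 or 3 or MC903 replicate 2 (adjusted p = 0.0536 to 0.107), and that of Cxcl9 without ethanol replicate 1 (0.055).

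The receptor and the cytokine did not follow the ligands on day 12. Cxcr3 was at 1.28, 2.42 and 1.66 cpm with ethanol and at 1.74, 1.85, 1.28 and 1.75 cpm with MC903 (-0.28 ± 0.25, adjusted p = 0.537), and Ifng at 0.450, 0.681 and 0.256 cpm and at 0.456, 0.363, 0.246 and 0.341 cpm (-0.53 ± 0.37, adjusted p = 0.408). Both pairs of groups overlapped. Of the genes induced by interferon gamma 0 of 20 were called (median 0.06), while 11 of 15 induced by type I interferon rose (median 1.72), where 10% of all genes were called. T cell markers summed to 57.4 to 80.7 cpm with ethanol and 92 to 111 cpm with MC903, and their part was not tested. The MC903 effect on day 12 was above that on day 8 by 1.57 ± 0.88 for Cxcl9, 0.78 ± 0.66 for Cxcl10 and 0.77 ± 1.06 for Cxcl11. No gene at all was called in that difference by edgeR (0%), which had 2028 genes at an unadjusted p under 0.05 and no member among them, and DESeq2 called 149 genes.

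BLT1.KO skin on day 8 showed the ligand rise with a narrow spread between libraries. Cxcl10 was at 1.29, 3.2 and 2.36 cpm with ethanol and at 39.4, 38.2 and 39.7 cpm with MC903, and Cxcl9 at 3.30, 6.17 and 1.98 cpm and at 84.7, 71.5 and 98 cpm. Cxcl11 went from 0.134, 0.302 and 0.183 cpm to 1.22, 1.85 and 1.46 cpm, and Cxcr3 from 1.14, 1.41 and 1.26 cpm to 3.09, 2.85 and 2.87 cpm. No group overlapped, and these 4 of 5 members were called, where 28.6% of all genes were: Cxcl9 rose by 21.9-fold (4.45 ± 0.38, adjusted p = 7.63e-05), Cxcl10 by 16.8-fold (4.07 ± 0.31, adjusted p = 4.84e-05), Cxcl11 by 7.2-fold and Cxcr3 by 2.25-fold. Ifng, at 0, 0.0201 and 0.347 cpm and at 1.16, 0.711 and 0.920 cpm, did not overlap either and did not pass (2.87 ± 1.19, adjusted p = 0.109), though it did in DESeq2 (0.0391) and without ethanol replicate 3 (0.00199).

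Compared with uninjected wild-type, no member's MC903 effect differed in BLT1.KO mice, where 6.95% of all genes did. The difference was 0.20 ± 1.06 for Cxcl9, -0.02 ± 0.82 for Cxcl10, -0.59 ± 0.82 for Cxcl11, -0.44 ± 0.34 for Cxcr3 and -0.46 ± 1.72 for Ifng, errors wide enough that these tests do not show the effects to be alike. Of the pathway lists, 16 of 20 genes induced by interferon gamma rose and 1 fell in BLT1.KO skin, and 14 of 15 induced by type I interferon rose, where 28.6% of all genes were called. Socs1 rose by 3.69 ± 0.40 and Oasl2 by 3.07 ± 0.15. T cell markers summed to 59.4 to 64.6 cpm with ethanol and 77 to 84 cpm with MC903.

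Of the 6 protein-coding neighbours within 100 kb of Cxcl10 that were tested (Ppef2, Naaa, Sdad1, Scarb2, Nup54 and Art3), none was called in uninjected wild-type skin on day 8, and Art3, whose exons overlap those of Cxcl10, was at -0.59 ± 0.26 (adjusted p = 0.116). In BLT1.KO skin Art3 fell (-1.35 ± 0.14) while the 3 ligands rose, and Sdad1 (0.74 ± 0.13), Scarb2 (0.46 ± 0.13) and Nup54 (0.54 ± 0.16) rose by less than any ligand. In aGr1-injected skin, where no ligand rose, Naaa fell (-0.76 ± 0.14) and Sdad1 (0.36 ± 0.11), Scarb2 (0.48 ± 0.13) and Nup54 (0.57 ± 0.12) rose. On day 1 Naaa fell (-0.50 ± 0.12) and Sdad1 rose (0.505 ± 0.091), and in TSLPR.KO skin on day 12 Sdad1 rose (0.56 ± 0.14).

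The order of the tissues differed between the ligands. In wild-type ethanol libraries the median of Cxcl9 was 3.05 cpm in skin (22 libraries), 0.791 cpm in trigeminal ganglia (21) and 0.602 cpm in spinal cord (13). Cxcl10 was alike in skin and ganglia (1.91 and 2.13 cpm) and lower in spinal cord (0.506 cpm). Cxcl11 had its highest median in the ganglia, at 2.62 cpm, against 0.229 cpm in skin and 0.154 cpm in spinal cord. Per kilobase of exon, the scale on which genes can be compared, the order in skin was Cxcl9 (1.01 cpm per kb), Cxcl10 (0.849) and Cxcr3 (0.595), and in ganglia Cxcl10 (0.948), Cxcl9 (0.262) and Cxcr3 (0.144). Cxcl11 was left out of this order because of the exon bases it shares. Differences between tissues were not tested, since each tissue was fitted apart. Cxcr3 was above 3 counts in 61 of 61 skin, 37 of 56 ganglion and 2 of 27 spinal cord libraries, and Ifng in 24 of 61 skin libraries and in none of the others, where its highest count was 2.

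**Figure D3:**
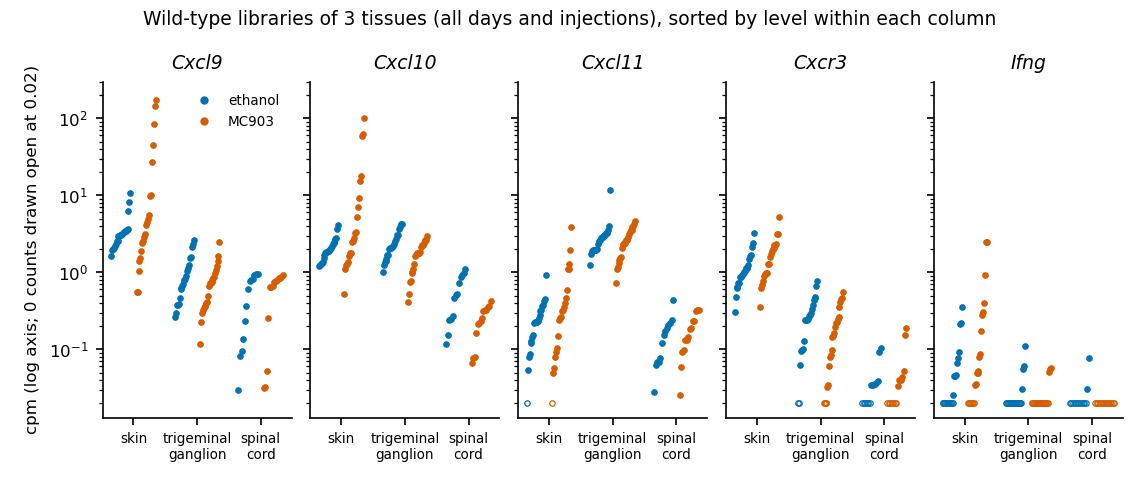
Level of each member (cpm, log axis) in wild-type skin, trigeminal ganglion and spinal cord (x axis), with 1 point per ethanol or MC903 library, sorted by level, and open points for 0 counts. Among ethanol libraries Cxcl9 has its highest median in skin (3.05 cpm) and Cxcl11 in trigeminal ganglia (2.62 cpm), and Ifng has at most 2 counts outside skin.

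In trigeminal ganglia, which hold the sensory neurons of the cheek, no member was called in any of the 8 comparisons. In uninjected wild-type mice on day 8 the ligands were nonetheless lower with MC903 on average. Cxcl9 was at 1.56, 2.66, 0.374, 0.264 and 2.32 cpm with ethanol and at 0.348, 0.363, 0.668, 0.736 and 0.228 cpm with MC903. Cxcl10 was at 2.33, 3.89, 2.06, 0.997 and 4.19 cpm and at 0.418, 0.754, 1.76, 1.79 and 1.28 cpm. Every group overlapped. The log2 fold changes of -1.53 ± 0.63 for Cxcl9, -1.27 ± 0.45 for Cxcl10 and -0.98 ± 0.35 for Cxcl11 had unadjusted p in edgeR of 0.0284, 0.0133 and 0.0145 and adjusted p of 0.702, 0.659 and 0.665, where 0.16% of all genes were called. Cxcl11 was at 1.26, 1.97, 3.06, 11.8 and 3.96 cpm with ethanol, the 11.8 being the library whose Crlf2 goes against its label, and at 0.732, 1.17, 2.64, 2.62 and 3.51 cpm with MC903. Without that library Cxcl11 was at -0.47 ± 0.25 (adjusted p = 0.743), Cxcl10 at -1.57 ± 0.35 (0.153) and Cxcl9 at -1.87 ± 0.52 (0.332). Cohort A alone gave calls at the ganglion threshold of 0.1 for Cxcl9 (-2.56 ± 0.40, adjusted p = 0.0537) and Cxcl10 (-2.38 ± 0.38, adjusted p = 0.0611).

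On earlier days no member passed. On days 1 and 2 no gene at all was called in ganglia by edgeR (0% each), with 2034 and 1527 genes at an unadjusted p under 0.05 and no member among them, and DESeq2 called 78 and 65 genes, again with no member. On day 5, where 0.00823% of genes were called, Cxcl10 was at 3.08, 2.67 and 2.53 cpm with ethanol and at 1.69, 2.13 and 1.77 cpm with MC903, apart but not past the test (-0.53 ± 0.31). On day 2 Cxcl11 was at 3.24 and 3.50 cpm and at 4.30, 4.65 and 3.99 cpm, likewise apart and not past it (0.35 ± 0.24).

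**Figure D4:**
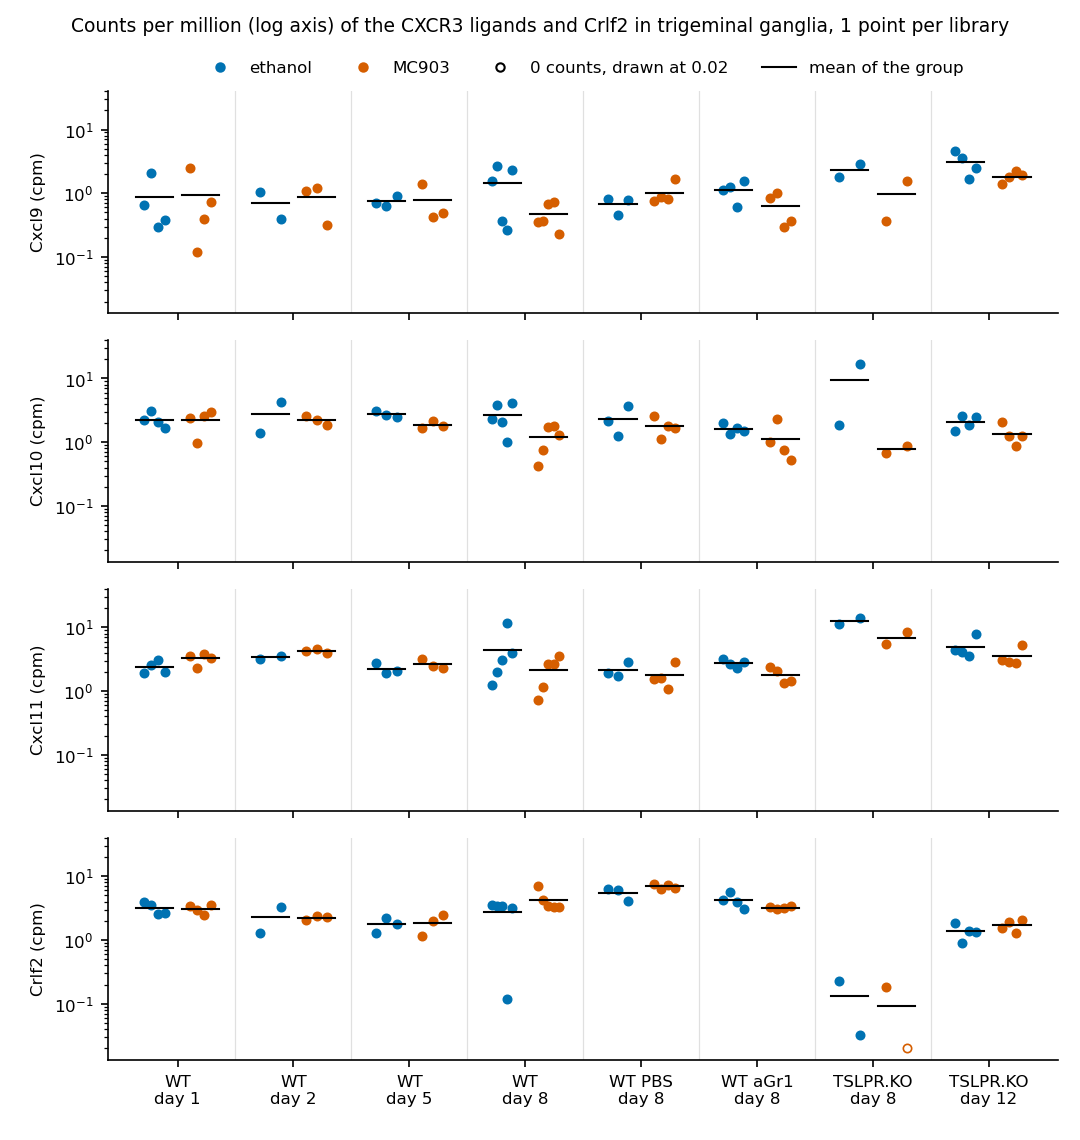
Level of the 3 ligands and Crlf2 (cpm, log axis) in each trigeminal ganglion library by genotype, injection and day (x axis), with 1 point per library for ethanol and MC903 and a line at the group mean. Ethanol and MC903 points overlap in most groups, and TSLPR.KO ethanol on day 8 holds the highest Cxcl10 library (17.1 cpm), while 1 wild-type day 8 ethanol library stands apart with low Crlf2 (0.117 cpm) and high Cxcl11 (11.8 cpm).

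No member passed in the ganglia of injected or knockout mice. In PBS-injected mice (3.36% of genes called) Cxcl9 was at 0.58 ± 0.35, Cxcl10 at -0.40 ± 0.33 and Cxcl11 at -0.29 ± 0.29. In aGr1-injected mice (1.88%) Cxcl9 was at -0.89 ± 0.40 (adjusted p = 0.381) and Cxcl11 at -0.61 ± 0.23 (adjusted p = 0.263). In TSLPR.KO mice on day 8 no gene was called by edgeR (0%, with 1886 at an unadjusted p under 0.05, 2 of them members, and 188 called by DESeq2). There Cxcl10 was at 1.86 and 17.1 cpm with ethanol, 57 and 525 counts, and at 0.684 and 0.871 cpm with MC903. The 2 ethanol libraries differed more from each other than the lower of them did from MC903, and the change of -3.50 ± 0.93 (adjusted p = 0.601) passed in DESeq2 (0.0199) and fell to -1.22 ± 0.87 without the library at 17.1 cpm. Cxcl11, at 11.2 and 13.8 cpm with ethanol and 5.43 and 8.39 cpm with MC903, was apart but not past the test (-0.79 ± 0.30, adjusted p = 0.602). One MC903 library there also held 153 cpm of keratinocyte markers, where the other libraries of that comparison held at most 6.90 cpm, and its part was not tested. On day 12 (0.304%) Cxcl9 was at -0.71 ± 0.27, Cxcl10 at -0.61 ± 0.27 and Cxcl11 at -0.49 ± 0.26, with adjusted p of 0.604, 0.67 and 0.748.

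In ganglia of the ethanol groups on day 8, Cxcl11 was at 11.2 and 13.8 cpm in TSLPR.KO and at 1.26 to 11.8 cpm in wild-type mice. The ranges overlapped, and the difference of 1.49 ± 0.64 on the log2 scale did not pass (adjusted p = 0.862), where 1 gene was called (0.00407%). Without the library whose Crlf2 goes against its label the difference was 2.29 ± 0.36, which did not pass either (adjusted p = 0.356), the next wild-type library being at 3.96 cpm.

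In spinal cord the members were low and none was called. Of the 27 libraries, Cxcl10 was above 3 counts in 25, Cxcl9 in 21 and Cxcl11 in 17, with at most 31, 27 and 15 counts. Cxcl10 in uninjected mice was at 0.117, 0.980, 0.864, 1.12 and 0.718 cpm with ethanol and at 0.363, 0.0791, 0.427 and 0.253 cpm with MC903. The groups overlapped through 1 low ethanol library, and the change of -1.43 ± 0.57 (adjusted p = 0.13, with 12.2% of all genes called) passed without it (-1.73, adjusted p = 0.00685). In aGr1-injected mice Cxcl10 was at 0.156 to 0.928 cpm (median 0.485) in the 6 ethanol libraries and at 0.0673 to 0.351 cpm (median 0.272) in the 8 MC903 libraries (-0.93 ± 0.35, adjusted p = 0.104, 11.3% called). In PBS-injected mice it was at 0.243 and 0.274 cpm and at 0.0783 and 0.216 cpm, and no gene was called by edgeR (0%, with 1571 at an unadjusted p under 0.05 and no member among them, and 176 called by DESeq2). Genes induced by interferon gamma fell there too in part, 10 of 20 in uninjected mice (median -0.57) and 8 of 20 in aGr1-injected mice (median -0.39). Cxcl9 was at 0.0293 to 0.257 cpm in the 9 uninjected libraries and at 0.371 to 0.946 cpm in the 18 injected ones, PBS and aGr1 alike, without overlap. That difference was not tested, since injection and the set of libraries cannot be told apart.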

How the data were processed

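RNA of mouse cheek skin, trigeminal ganglia and spinal cord was sequenced by the authors as poly(A) single-end libraries, aligned to mm10 with Bowtie2 and TopHat, and counted per Ensembl gene with HTSeq, and the deposited values are raw counts per gene. The strand setting of the counting is not given in the sources used here. Reads on no gene (6.15% to 21.5%) or on several genes (1.77% to 13.2%) were left out of library totals, and 45229 of 46078 identifiers matched GENCODE M21 on GRCm38.

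Each comparison was fitted on its own libraries in edgeR 4.0.16 (R 4.3.3, quasi-likelihood F test, TMM scaling, genes with at least 10 counts in total, Benjamini-Hochberg over all genes tested), with a cohort term where both cohorts entered. The threshold was 0.05 for skin and spinal cord and 0.1 for ganglia, and a gene past it is called. DESeq2 1.42.0 was an alternative, beside other scalings, filters, cohorts, a replicate block and leaving out each library. The SE is the absolute log2 fold change over the square root of F. Levels are cpm without TMM, computed with pandas 2.3.3 and numpy 2.4.6. The scripts were tested on simulated data.

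Same-numbered ethanol and MC903 libraries deviated together, with every correlation over 0.1, in wild-type skin of day 2 (0.203 to 0.246 over 2 pairs), in wild-type ganglia of day 5 (0.144 to 0.355 over 3 pairs) and in ganglia labelled TSLPR.KO of day 12 (0.208 to 0.606 over 4 pairs). A block on that number called no member in any of these.

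The members and lists were chosen with earlier results of these data known. Genes named are the 5 members, up to 3 genes per list and direction with the smallest p among those called in uninjected wild-type skin of day 8 (shown in other day 8 groups too), the neighbours within 100 kb of Cxcl10, the 5 genes most like Cxcl10 and Cxcr3 by Pearson's r among genes with a mean of 1 cpm or more, and Crlf2 and Ltb4r1. Genes named in the TSLPR.KO ethanol contrast were chosen after their values were seen. Groups of 4 to 10 libraries with a median over 3 counts were searched for a library that stands apart. Wild-type libraries of day 12 were not used here.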

Additional observations from a re-analysis of the deposited data

Results flagged for a closer look

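Of 72 sets of 4 to 10 libraries searched, each 1 member in 1 group, 5 held a library that stood apart by Dixon's criterion, and chance alone marks about 1 in 20. Cxcl11 gave 4 of these. It was at 3.88 cpm in the uninjected wild-type MC903 skin library cohort A skin4 (next highest 1.10 cpm), at 0.329 cpm in aGr1 ethanol skin replicate 2 (next 0.232 cpm), at 11.8 cpm in the library labelled wild-type ganglion, ethanol, day 8, cohort B replicate 2 (next 3.96 cpm), and at 5.36 cpm in replicate 4 of the day 12 ganglia labelled TSLPR.KO with MC903 (next 3.08 cpm). Cxcl9 was at 1.65 cpm in PBS MC903 ganglion replicate 4 (next 0.874 cpm).

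The MC903 effect on skin differed between groups, by an interaction test in edgeR, in 6 cases. Between aGr1-injected and PBS-injected mice it differed by -5.45 (log2) for Cxcl9 and -5.29 for Cxcl10. Between aGr1-injected and uninjected mice, with the same aGr1 libraries, it differed by -5.43 for Cxcl9, -5.00 for Cxcl10 and -5.63 for Cxcl11. Between TSLPR.KO and wild-type mice it differed by -2.83 for Cxcr3.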

How the results depend on the processing

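Counts of members called moved as follows. DESeq2 called 2 in skin of day 1, 1 on day 5, 2 in aGr1 skin, 2 in the TSLPR.KO interaction, 1 in TSLPR.KO ganglia of day 8 and 3 in the TSLPR.KO ethanol contrast. With no filter on low counts the number was 1 in skin of day 5, 1 in TSLPR.KO skin of day 8, 2 in wild-type ganglia of day 8 and 1 in TSLPR.KO ganglia of day 8, and with edgeR's filterByExpr it was 0 in aGr1 skin. Fitting all days in 1 model gave 0 on day 1, with Cxcl11 at -0.0226. Cohort B alone gave 3 in skin of day 8, cohort A alone gave 2 in ganglia, and cohort B as wild-type gave 0 in the TSLPR.KO interaction and 0 in the ethanol contrast, with Cxcl10 at 1.24 and Ifng at 1.43 in the BLT1.KO interaction. Without the 2 aGr1 ethanol libraries highest in B cell markers the number was 0 in aGr1 skin and in both aGr1 interactions, with Cxcr3 at 1.13. In the PBS interaction DESeq2 gave -0.0211 for Cxcl9 and -0.0398 for Ifng. DESeq2 size factors in edgeR ended 1 call, that of Ifng on day 8 (adjusted p = 0.0504), and leaving out the cohort term ended none. The causes were not tested.

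With 1 library left out, the members called ran from 0 to 2 in skin of day 1, 0 to 1 on day 5, 0 to 3 with PBS, 0 to 2 with aGr1, 1 to 3 in TSLPR.KO of day 12, 0 to 1 in TSLPR.KO ganglia of day 8, 0 to 1 in spinal cord of uninjected and of aGr1 mice, 0 to 3 between aGr1 and PBS, 0 to 1 in the TSLPR.KO interaction and 0 to 1 in the ethanol contrast. Directions turned for uncalled members: Cxcl11 on day 1 (-0.23 to 0.42), Cxcl10 (-0.11 to 0.49) and Cxcr3 (-0.33 to 0.58) on day 5, Cxcr3 with aGr1 (-0.38 to 0.48), Cxcl9 (-0.34 to 1.62), Cxcl10 (-0.0072 to 1.05), Cxcl11 (-0.0062 to 2.38) and Ifng (-3.56 to 0.46) in TSLPR.KO skin of day 8. In interactions they turned for Cxcl9 (-1.06 to 0.65), Cxcl10 (-1.09 to 0.99) and Ifng (-1.98 to 5.09) with PBS, Cxcl9 (-0.31 to 0.82), Cxcl10 (-0.44 to 0.45), Cxcl11 (-0.84 to 0.092) and Ifng (-2.09 to 2.95) with BLT1.KO, and Ifng (-1.04 to 3.03) between TSLPR.KO days.

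With a replicate block, where numbers are shared but pairing was not established, 1 member was called in skin of day 5 (Cxcl9 at -1.83), 0 with aGr1 (Cxcr3 at 0.094) and 1 in TSLPR.KO ganglia of day 8, and Cxcl10 was lost in TSLPR.KO skin of day 12 (adjusted p = 0.0932). The block changed no other call. In PBS spinal cord 0 genes were called unpaired, 224 with the block and 955 with crossed numbers, a pairing added after the data were seen. Ifng, with 24 of 61 skin libraries above 3 counts, is the member that depth limits most.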

Other observations

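In PBS-injected skin, genes around the CXCR3 ligands on the interferon pathways moved as follows, where 3.99% of all genes were called. Of the 12 genes of interferon gamma signalling 6 rose and none fell (median log2 fold change 1.32, against -0.01 over all genes), among them Socs1 at 2.997 ± 0.35 (edgeR adjusted p = 0.00901) and Irf8 at 1.964 ± 0.35. Of the 15 genes strongly induced by type I interferon 9 rose (median 2.57), with Oas1a at 3.43 ± 0.42 and Oasl2 at 3.38 ± 0.46. Of the 20 genes strongly induced by interferon gamma 1 was called, although their median was 1.56: Irgm1 was at 2.29 ± 0.49 (adjusted p = 0.0599) and Gbp5, a guanylate-binding protein, at 2.08 ± 0.52 (adjusted p = 0.0909). Il18rap, a chain of the interleukin 18 receptor, rose by 3.06 ± 0.35. Gzmb, the protease granzyme B, rose by 5.71 ± 0.66, from a mean of 0.123 to 6.65 cpm.

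In trigeminal ganglia of PBS-injected mice, where no CXCR3 ligand was called, 6 of 19 tested genes induced by interferon gamma and 3 of 15 induced by type I interferon rose at the threshold of 0.1, where 3.36% of all genes were called, with medians of 0.22 and 0.50 against 0.00 over all genes. In aGr1-injected skin, Il18rap rose by 1.71 ± 0.30 (adjusted p = 0.0029), while Gzmb at 0.94 ± 0.51 (adjusted p = 0.187) did not pass.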
